A study of Mus musculus with 6 samples.

Results

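Cell division in mitosis is run by a set of genes that are switched on late in the cell cycle. The kinase Cdk1, bound to cyclins A and B, drives entry into mitosis. Condensin and topoisomerase II compact the chromosomes, the spindle checkpoint holds the cell until every kinetochore is attached to microtubules, and the anaphase-promoting complex then destroys cyclin B and securin so that sister chromatids part and cytokinesis can follow. Activated T cells are among the fastest dividing cells of the adult body, and the RNA of these genes is widely read as a measure of how much a T cell culture is dividing.

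The 44 mitosis and spindle genes described here were chosen by name, for the spindle checkpoint, mitotic kinases and cyclins, kinesins, kinetochores, condensin, chromosome structure, cytokinesis and the factors that transcribe them. All 44 were among the 33300 features of the table, and all 44 passed the filter on low values, a mean of at least 1 FPKM (fragments per kilobase of feature per 1000000 assigned reads) over the libraries. RNA was measured in cells of 3 SLE1.2.3 mice, a lupus-prone strain whose name stands for 3 lupus intervals, Sle1 on chromosome 1, Sle2 on chromosome 4 and Sle3 on chromosome 7, and of 3 Control mice, labelled WT. All mice were female and age-matched, with no age given. In both groups naive CD4 T cells were stimulated on plates coated with antibodies to CD3 and CD28 for 5 days, in the Th17 condition. That medium held the neutralizing antibodies anti-IL4 and anti-IFNγ, each at 10 µg/mL. Among its cytokines, TGFβ1 was at 1 ng/mL, IL-6 at 50 ng/mL, and both IL-1β and IL-23 at 10 ng/mL. Each library is named by its group and mouse number. The cultures are bulk samples, so fewer dividing cells and less of these RNAs per dividing cell cannot be told apart.

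Assigned reads, worked out from how low values step, came to between 61700000 and 83500000 per SLE1.2.3 library and between 29700000 and 56800000 per Control library. The member with the fewest reads was Pttg1, with 483 in its shallowest library, and the most reads of any member in a library were 79853. The T cell gene Cd3e had 47.5, 53.9 and 51.5 FPKM in cells of SLE1.2.3 mice 1, 2 and 3, against 49.6, 57.3 and 60.8 FPKM in those of Control mice 1, 2 and 3. Il17a had 1676, 2275 and 2135 FPKM in SLE1.2.3 and 801, 616 and 394 FPKM in Control cells. Of 9 T cell and Th17 identity genes 4 rose and 0 fell (limma), and voom called 4 higher and 0 lower. Cd4 had 257, 144 and 71.6 FPKM in SLE1.2.3 and 246, 264 and 253 FPKM in Control cells. The summed level of 8 γδ T cell markers was 57.3, 259 and 571 FPKM for SLE1.2.3 mice 1, 2 and 3, against 2.95 to 3.78 FPKM for Control mice, and 7 of the 8 rose (limma), while voom called 1 of the 8 higher. The 7 CD8 T and NK cell markers summed to 30.3, 90.5 and 155 FPKM for the SLE1.2.3 mice, against 11.0 to 12.1 FPKM for Control mice. Of 4 tested, Klrd1 and Klrk1 rose (limma), and voom called 2 higher. Klrd1 had 19.9, 30.5 and 32.3 FPKM in SLE1.2.3 and 5.68, 6.98 and 5.99 FPKM in Control cells. Klrk1 had 2.49, 9.75 and 11.7 FPKM in SLE1.2.3 and 0.141, 0.115 and 0.192 FPKM in Control cells. Cd8a and Cd8b1 did not pass (limma, adjusted p = 0.0806 and 0.0926), and the NK receptor gene Ncr1 was at most 0.032 FPKM. Of 6 tested B and plasma cell markers Igkc, Jchain, Prdm1 and Cd79b rose and Xbp1 fell (3 higher and 1 lower by voom). Igkc had 56.4, 86.2 and 152 FPKM in SLE1.2.3 and 0.971, 0.695 and 1.64 FPKM in Control cells. Jchain had 1.91 to 5.09 FPKM and Prdm1 5.19 to 19 FPKM in SLE1.2.3 cells, against at most 0.071 and 0.627 FPKM in Control cells. The B cell gene Ms4a1 was at most 0.043 FPKM. The sums, which include the abundant Ighm and Xbp1, were 189 to 247 FPKM in SLE1.2.3 cells and 131 to 149 FPKM in Control cells. Of 4 tested myeloid and dendritic markers Xcr1 rose and Cd68 fell (0 higher and 1 lower by voom), with the macrophage gene Csf1r at most 0.106 FPKM and sums of 8.69 to 13.6 FPKM in SLE1.2.3 cells and 8.68 to 10.1 FPKM in Control cells.

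The promoters of 4 members that fell are shown because many mitotic genes are known to share a pair of promoter elements. One is the CCAAT box, bound by NF-Y. The other is the cell cycle genes homology region (CHR), through which the DREAM and MuvB complexes repress these genes in resting cells and activate them in dividing ones. The sequences are from RefSeq (build GRCm38.p6) and hold the 150 bases before the start that RefSeq gives and the 20 bases from that start on. That start is the first base of the gene in the deposited table for Top2a, Bub1b and Ncaph, and lies 6 bases inside the gene for Ncapg. Capitals mark CCAAT boxes (CCAAT or its reverse complement ATTGG) and CHR matches (TTTGAA, its reverse complement TTCAAA, or TTCGAA).

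Top2a, at chr11:99024170-99024339, minus strand: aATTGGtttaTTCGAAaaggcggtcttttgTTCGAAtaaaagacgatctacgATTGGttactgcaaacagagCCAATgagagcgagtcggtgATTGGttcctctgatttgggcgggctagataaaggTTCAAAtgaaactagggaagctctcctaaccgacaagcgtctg

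Ncapg, at chr5:45669775-45669944, plus strand: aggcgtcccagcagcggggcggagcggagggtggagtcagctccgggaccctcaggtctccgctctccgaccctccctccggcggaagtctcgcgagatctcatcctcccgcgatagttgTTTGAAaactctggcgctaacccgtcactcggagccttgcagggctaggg

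Bub1b, at chr2:118598061-118598230, plus strand: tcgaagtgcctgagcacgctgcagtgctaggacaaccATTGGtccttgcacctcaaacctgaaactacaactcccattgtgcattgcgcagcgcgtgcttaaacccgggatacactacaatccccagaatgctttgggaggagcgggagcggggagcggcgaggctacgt

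Ncaph, at chr2:127133935-127134104, minus strand: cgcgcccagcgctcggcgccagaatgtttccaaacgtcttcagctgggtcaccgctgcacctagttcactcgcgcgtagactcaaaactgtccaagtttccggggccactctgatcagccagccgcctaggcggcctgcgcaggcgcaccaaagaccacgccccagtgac

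Top2a, which encodes the topoisomerase that untangles chromosomes, held 4 CCAAT boxes and 3 CHR matches in the printed stretch, with one CHR match starting 23 bases before the RefSeq start. Ncapg held a CHR match that starts 30 bases before its RefSeq start, and Bub1b a CCAAT box that starts 113 bases before its own. Ncaph held neither set of letters. In the whole RefSeq window of 300 bases, 39 windows of 36 members were searched on both strands, with the elements counted separately and free to overlap. A CCAAT box was in 30 of the 39 (76.9%), against 37.4% of all 32851 windows, and a CHR match in 30 (76.9%), against 19.2%. Both were in 28 windows (71.8%), against 7.53% of all windows and 6.03% of the 10421 windows of tested genes. Members that fell held both in 4 of 5 windows and the other members in 24 of 34. A match is a description of the letters and not a measured site.

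The design compares Th17-differentiated cells of SLE1.2.3 and Control mice. RNA of mitotic genes was lower in SLE1.2.3 cells for the condensin I subunit genes Ncapd2, Ncaph and Ncapg, the topoisomerase gene Top2a, the checkpoint kinase gene Bub1b and the kinase gene Aurkb, at between 0.673 and 0.754 times the Control level. Of 44 members 6 fell and 0 rose at an adjusted p of 0.05 (limma on log2(FPKM + 1), Benjamini-Hochberg over 11378 tested genes), and 38 did not pass. Of all tested genes 5.58% fell and 9.65% rose, so that 63.4% of all calls were higher, a share of 74.2% after rescaling to a common FPKM sum and 51.1% after quantile normalization. At an unadjusted p of 0.05, 23 members were lower and 0 higher, where the shares of all tested genes were 14.8% and 20.2%, and limma voom on the recovered reads called 7 lower and 0 higher, where it called 5.72% of all tested genes lower and 885 genes higher. The log2 change was below 0 for 41 of 44 members, and for 47.5% of all tested genes. Its median was -0.27 over the members and 0.01 over all tested genes, and single members ranged between -0.56 and 0.14. In 18 members all 3 SLE1.2.3 values lay below all 3 Control values, as in 17.7% of all tested genes, and in 1 member, Pttg1, all 3 lay above, as in 23.9%.

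The count of 6 moved with single libraries and with the scaling. Leaving out SLE1.2.3 mouse 3 gave 17 of 44, where 4.59% of all tested genes fell, and leaving out SLE1.2.3 mouse 1 gave 7, where 13.8% did. Leaving out Control mouse 1 gave 1, where 0.932% of all tested genes fell. Leaving out SLE1.2.3 mouse 2, Control mouse 2 or Control mouse 3 gave 0, where 0.615%, 0.642% and 0.844% of all tested genes fell. It was 11 with median ratio size factors and 13 with quantile normalization, where 6.76% and 7.74% of all tested genes fell. After rescaling to a common FPKM sum it was 0, where 3.06% of all tested genes fell, and the median of all genes moved to 0.11 on the log2 scale and that of the members to -0.15. Control mouse 3 stands apart in that sum, with 386361 FPKM, against 297266 to 313550 FPKM in the other 5 libraries. It also had the fewest reads and 2.37% of them in ribosomal RNA features, against 0.187% to 0.281% in the others. With those features left out of the scaling 6 members fell, where 6.07% of all tested genes fell.

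**Figure D1:**
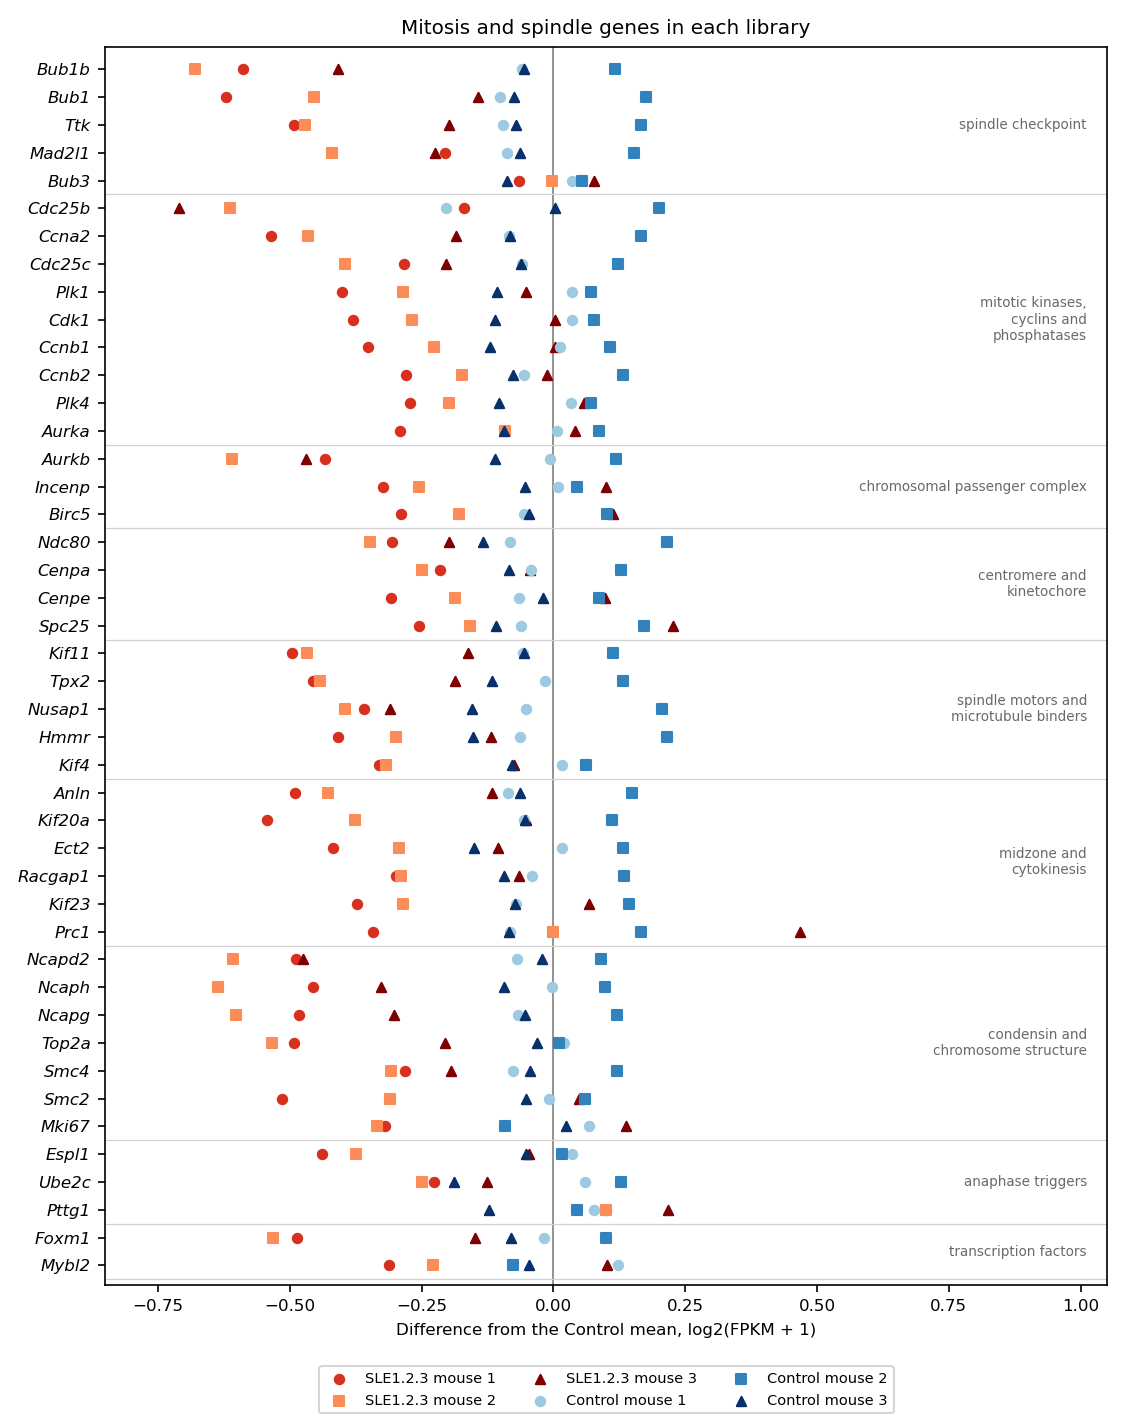
Difference of each library from the mean of the Control libraries, in log2(FPKM + 1), for the 44 members grouped by role. Each symbol is 1 library, with SLE1.2.3 in red shades and Control in blue shades. SLE1.2.3 mice 1 and 2 lie left of the Control symbols for most members, while mouse 3 lies left of them for 19 members.

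The SLE1.2.3 libraries did not move alike. SLE1.2.3 mouse 1 lay below all 3 Control libraries for 41 of 44 members, where 32.3% of all tested genes did so. For SLE1.2.3 mouse 2 it was 40 members, against 35.3% of all tested genes, and for SLE1.2.3 mouse 3 it was 19 members, or 43.2%, against 36.3% of all tested genes. In SLE1.2.3 mouse 3 another 17 members lay inside the Control range and 8 above it, namely Prc1, Spc25, Birc5, Incenp, Mki67, Cenpe, Bub3 and Pttg1, where 42.9% of all tested genes lay above. Above the Control range in SLE1.2.3 mouse 1, and again in mouse 2, was 1 member, Pttg1, where 37.7% and 40.1% of all tested genes lay above in mice 1 and 2. Mice 1 and 2 were both below the Control range, and mouse 3 was not, for 21 members (47.7%) and for 5.36% of all tested genes. The median over members of the level relative to the Control mean was 0.771, 0.796 and 0.934 for SLE1.2.3 mice 1, 2 and 3. SLE1.2.3 mouse 3, the library with the levels closest to Control, also had the highest γδ, CD8 T and NK, and B and plasma cell sums. It had the lowest Cd4 level. Within its group it also had the lowest T cell and Th17 identity sum (3370 FPKM) and myeloid and dendritic sum (8.69 FPKM). Its γδ sum was 571 FPKM and its CD8 T and NK sum 155 FPKM. In SLE1.2.3 mouse 2 these sums were 259 and 90.5 FPKM, against 57.3 and 30.3 FPKM in mouse 1. Cd4 was 144 FPKM in mouse 2 and 257 FPKM in mouse 1, while the member medians of these mice were 0.796 and 0.771. The part of γδ, CD8 T and NK cells in the levels of the mitotic genes was not tested. The fit without SLE1.2.3 mice 2 and 3 was chosen after seeing the data. It has 1 SLE1.2.3 library and assumes that this library varies like the Control libraries. That library, mouse 1, still had a γδ sum of 57.3 FPKM, against 2.95 to 3.78 FPKM for Control mice. The median log2 change of this fit was -0.36 over the members and 0.02 over all tested genes. The change was below 0 for 43 of 44 members and for 46.6% of all tested genes.

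**Figure D2:**
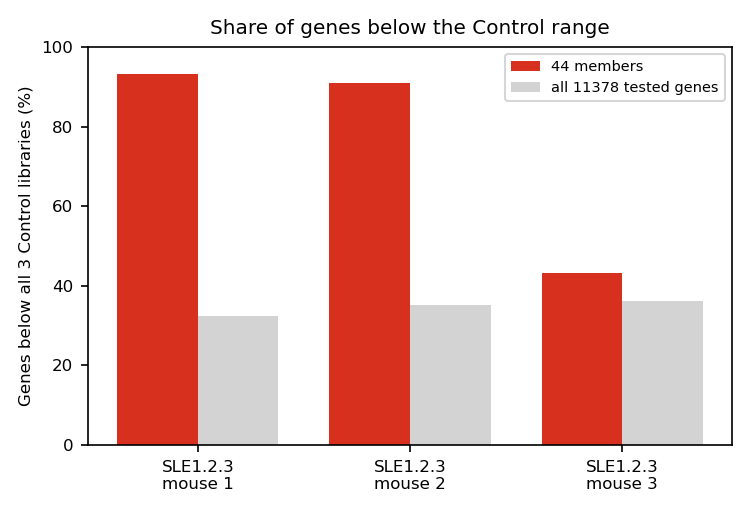
Share of genes, in %, whose level in each SLE1.2.3 library lay below all 3 Control libraries, for the 44 members (red) and for all 11378 tested genes (grey). The share of members is 93.2%, 90.9% and 43.2% for mice 1, 2 and 3, and that of all tested genes between 32.3% and 36.3%.

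Of 7 condensin and chromosome structure genes 4 fell and 0 rose, where 5.58% of all tested genes fell and 9.65% rose. Condensin is the ring that folds mitotic chromosomes. Ncapd2, the HEAT-repeat subunit of condensin I (chromosome 6, 125168007 to 125191701, mm10, minus strand), had 57.7, 52.97 and 58.2 FPKM in SLE1.2.3 cells, against 77.4, 86.6 and 80.1 FPKM in Control cells. The groups did not overlap, and the SLE1.2.3 mean was 56.3 ± 2.88 FPKM and the Control mean 81.4 ± 4.72 FPKM (SD, n = 3 for each). Its log2 change was -0.52 ± 0.07 (SE, limma, adjusted p = 0.0112), and it passed under 13 of 18 alternative settings with the same direction in all 18.

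Ncaph, the kleisin that closes the ring (chromosome 2, 127103809 to 127133954, minus strand), had 24.2, 21.3 and 26.6 FPKM in SLE1.2.3 and 33.6, 36.1 and 31.4 FPKM in Control cells, a log2 change of -0.47 ± 0.10 (SE, adjusted p = 0.0287). Ncapg, the third subunit specific to condensin I (chromosome 5, 45669919 to 45700546, plus strand), had 13.2, 12.1 and 15.1 FPKM in SLE1.2.3 and 18, 20.6 and 18.2 FPKM in Control cells, a log2 change of -0.46 ± 0.10 (adjusted p = 0.0308). For both, SLE1.2.3 mouse 2 was the lowest library and mouse 3 the highest of its group, still below every Control library. Each passed under 10 of 18 alternatives, with the same direction in all 18. The ATPase subunits Smc2 and Smc4, which condensin I and II share, did not pass. Smc4 had 76.8, 75.3 and 81.6 FPKM in SLE1.2.3 and 88.7, 102 and 90.7 FPKM in Control cells (adjusted p = 0.068), without overlap. Smc2 had 38.2, 44.1 and 56.9 FPKM in SLE1.2.3 and 54.6, 57.3 and 52.9 FPKM in Control cells (adjusted p = 0.247), with SLE1.2.3 mouse 3 inside the Control range.

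A pair of further genes acts on the same chromosomes. Top2a (chromosome 11, 98992943 to 99024189, minus strand), whose product also resolves sister chromatids before anaphase, had 96.5, 93.8 and 118 FPKM in SLE1.2.3 and 138, 137 and 133 FPKM in Control cells. All 3 SLE1.2.3 libraries lay below the Control libraries, with mouse 3 nearest to them, and the log2 change was -0.41 ± 0.10 (SE, adjusted p = 0.043). It passed under 11 of 18 alternatives. Mki67, which encodes the chromosome coat protein Ki-67 used to stain dividing cells, had 72.9, 72.1 and 100.5 FPKM in SLE1.2.3 and 95.7, 85.6 and 92.7 FPKM in Control cells and did not pass (log2 change -0.17, adjusted p = 0.415). Its 95% interval ran from -0.51 to 0.17 on the log2 scale, and SLE1.2.3 mouse 3 held more of it than any Control library.

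**Figure D3:**
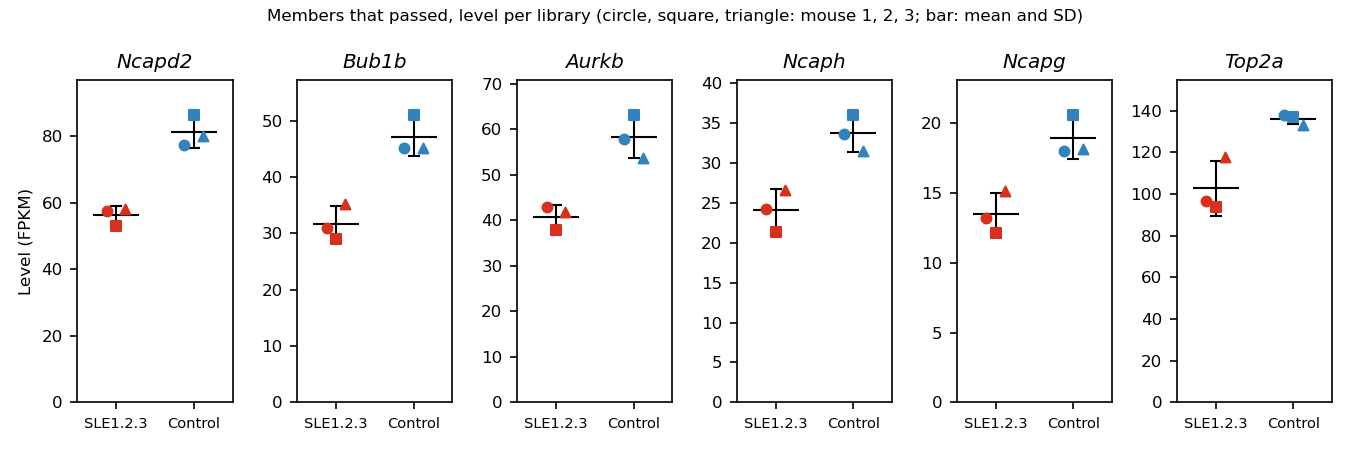
Level in FPKM of the 6 members that fell, with 1 symbol per library, SLE1.2.3 in red and Control in blue, and the mean with its SD (n = 3) as a bar. Every axis starts at 0, and in each panel the highest SLE1.2.3 library lies below the lowest Control library.

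Of the 5 spindle checkpoint genes 1 fell, where 5.58% of all tested genes did. Bub1b, which encodes the checkpoint protein BubR1 (chromosome 2, 118598211 to 118641591, plus strand), had 30.9, 28.99 and 35.2 FPKM in SLE1.2.3 and 45.1, 51.1 and 45.2 FPKM in Control cells. The SLE1.2.3 mean was 0.673 times the Control mean, the lowest ratio of any member, with a log2 change of -0.56 ± 0.09 (SE, adjusted p = 0.0177), and it passed under 12 of 18 alternatives. Its partner kinase gene Bub1 had 14.9, 16.9 and 21.2 FPKM in SLE1.2.3 and 21.8, 26.7 and 22.3 FPKM in Control cells (adjusted p = 0.0965), with mouse 3 just under the Control range. Ttk, the kinase that recruits the checkpoint proteins, had 5.83, 5.93 and 7.38 FPKM in SLE1.2.3 and 7.996, 9.78 and 8.15 FPKM in Control cells (adjusted p = 0.0657). Mad2l1, which encodes the inhibitor of Cdc20, had 13.7, 11.7 and 13.5 FPKM in SLE1.2.3 and 14.9, 17.8 and 15.2 FPKM in Control cells (adjusted p = 0.0917). Neither gene passed, although the groups did not overlap in either. Bub3, the adaptor that carries Bub1 and BubR1 to kinetochores, had 23.97, 25.1 and 26.6 FPKM in SLE1.2.3 and 25.8, 26.1 and 23.6 FPKM in Control cells. Its log2 change was 0.00 with a 95% interval of -0.17 to 0.17, and its sign changed with the scaling.

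The chromosomal passenger complex corrects faulty spindle attachments. Its kinase gene Aurkb (chromosome 11, 69045647 to 69051664, plus strand) had 42.9, 37.8 and 41.8 FPKM in SLE1.2.3 and 58, 63.3 and 53.8 FPKM in Control cells, without overlap and with mouse 3 as low as the other SLE1.2.3 libraries. Its log2 change was -0.50 ± 0.09 (SE, adjusted p = 0.0183), and it passed under 11 of 18 alternatives. The other subunits did not pass. Incenp, the scaffold, had 49.03, 51.4 and 66.05 FPKM in SLE1.2.3 and 61.96, 63.6 and 59.3 FPKM in Control cells (log2 change -0.16, adjusted p = 0.373). Birc5, which encodes survivin, had 28.7, 31.1 and 38.3 FPKM in SLE1.2.3 and 33.97, 37.97 and 34.2 FPKM in Control cells (log2 change -0.12, adjusted p = 0.497). In both, SLE1.2.3 mice 1 and 2 lay below the Control libraries and mouse 3 above them, and whether their change differed from that of Aurkb was not tested.

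The group of mitotic kinases, cyclins and phosphatases did not pass the test in any of its 9 genes. At an unadjusted p of 0.05, 3 of the 9 were lower and 0 higher, where 14.8% and 20.2% of all tested genes were. Of the 9 voom called 0. Cdk1 had 19.3, 20.9 and 25.4 FPKM in SLE1.2.3 and 26, 26.8 and 23.4 FPKM in Control cells (log2 change -0.22, adjusted p = 0.226). Ccnb1, the main mitotic cyclin gene, had 30.3, 33.2 and 39.1 FPKM in SLE1.2.3 and 39.3, 42.1 and 35.8 FPKM in Control cells (log2 change -0.19, adjusted p = 0.263). Ccnb2, its relative, had 68.8, 74.1 and 83.1 FPKM in SLE1.2.3 and 80.6, 91.9 and 79.4 FPKM in Control cells (log2 change -0.16, adjusted p = 0.300). In all 3 of these genes SLE1.2.3 mouse 3 lay inside the Control range and mice 1 and 2 below it. Ccna2, the cyclin gene that acts from S phase on, had 38.9, 40.95 and 49.97 FPKM in SLE1.2.3 and 53.6, 63.98 and 53.7 FPKM in Control cells, without overlap (log2 change -0.39, adjusted p = 0.0708). The kinase genes Plk1, Plk4 and Aurka had log2 changes of -0.25, -0.14 and -0.11 (adjusted p = 0.154, 0.380 and 0.454).

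The phosphatase genes Cdc25b and Cdc25c, whose products switch Cdk1 on, differed in which mice were low. Cdc25b had 59.4, 43.4 and 40.6 FPKM in SLE1.2.3 and 58.03, 77.1 and 67.2 FPKM in Control cells, with mouse 1 inside the Control range and mice 2 and 3 below it (log2 change -0.50 ± 0.17 SE, adjusted p = 0.0923). That is the reverse of the usual order among the SLE1.2.3 libraries, and Cdc25b was the single member for which mouse 3 was the lowest of the 3. Without SLE1.2.3 mouse 1 its log2 change was -0.66 and it passed. Cdc25c had 4.32, 3.92 and 4.62 FPKM in SLE1.2.3 and 5.21, 6.04 and 5.203 FPKM in Control cells, without overlap (adjusted p = 0.066).

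**Figure D4:**
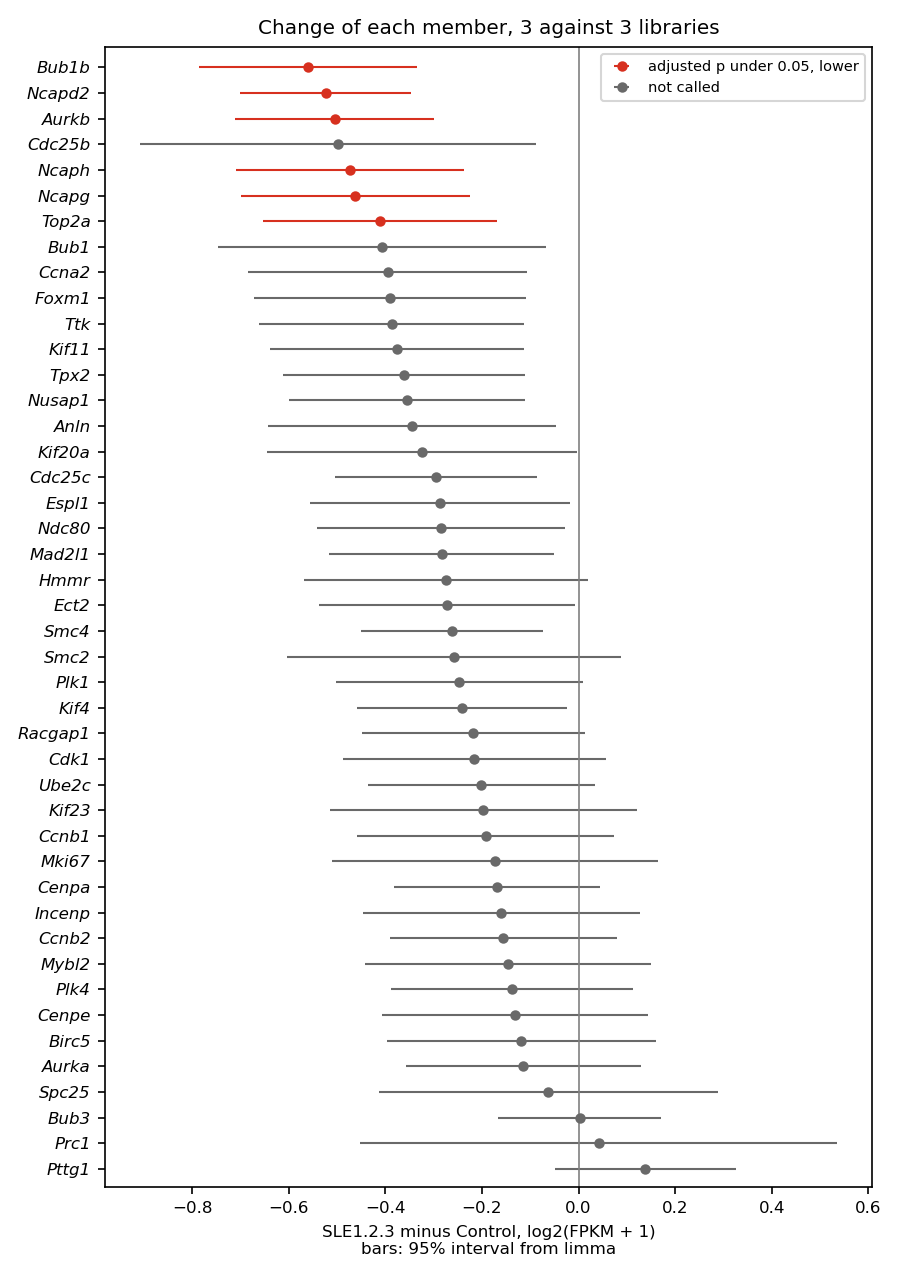
Log2 change of each of the 44 members (SLE1.2.3 minus Control, log2(FPKM + 1)) with its 95% interval from limma, in order of size. The 6 members that fell are in red and lie between -0.56 and -0.41, and 23 of the 44 members have an unadjusted p under 0.05, with an interval wholly below 0.

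None of the 5 spindle motor and microtubule-binding genes passed (limma), while voom called Nusap1 lower. At an unadjusted p of 0.05, 4 were lower and 0 higher, where 14.8% and 20.2% of all tested genes were. Kif11, the kinesin that pushes spindle poles apart, had 26.9, 27.4 and 34.1 FPKM in SLE1.2.3 and 36.7, 41.5 and 36.8 FPKM in Control cells (log2 change -0.38, adjusted p = 0.0644). Tpx2, which activates Aurora A at the spindle, had 39.9, 40.2 and 48.2 FPKM in SLE1.2.3 and 54.4, 60.4 and 50.7 FPKM in Control cells (adjusted p = 0.0629). Nusap1, a microtubule bundling protein gene, had 40.8, 39.8 and 42.3 FPKM in SLE1.2.3 and 50.8, 60.9 and 47.3 FPKM in Control cells (adjusted p = 0.062). In these 3 genes the groups did not overlap, and the adjusted p lay just above the threshold. The chromokinesin gene Kif4 and the hyaluronan-mediated motility receptor gene Hmmr, whose product binds spindle microtubules, had log2 changes of -0.24 and -0.27 (adjusted p = 0.113 and 0.164).

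Kinetochore members did not pass either, with 0 called by voom. At an unadjusted p of 0.05, 1 of 4 was lower and 0 higher, where 14.8% and 20.2% of all tested genes were. Ndc80, the microtubule anchor, had 10.6, 10.3 and 11.5 FPKM in SLE1.2.3 and 12.6, 15.7 and 12.1 FPKM in Control cells, without overlap (log2 change -0.28, adjusted p = 0.115). Spc25, which sits in the same complex, had 11.2, 12.04 and 16.02 FPKM in SLE1.2.3 and 12.9, 15.4 and 12.5 FPKM in Control cells. In SLE1.2.3 mouse 3 it was above every Control library, its log2 change of -0.06 had a 95% interval of -0.41 to 0.29, and its sign turned positive after rescaling to a common FPKM sum. Cenpa, the histone that marks centromeres, and Cenpe, a kinesin of the kinetochore, had log2 changes of -0.17 and -0.13 (adjusted p = 0.224 and 0.441).

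In the midzone and cytokinesis group 3 of 6 genes were lower and 0 higher at an unadjusted p of 0.05. The shares of all tested genes were 14.8% and 20.2%. None of the 6 passed in limma or voom. Anln, which encodes the contractile ring protein anillin, had 3.59, 3.801 and 4.95 FPKM in SLE1.2.3 and 5.08, 6.16 and 5.17 FPKM in Control cells, without overlap (log2 change -0.34, adjusted p = 0.103). Kif20a, a kinesin of the central spindle, had 15.7, 17.7 and 22.4 FPKM in SLE1.2.3 and 22.4, 25.2 and 22.4 FPKM in Control cells, with mouse 3 inside the Control range (adjusted p = 0.140). Ect2, which switches on RhoA at the cell equator, Racgap1, its activating partner, and Kif23, the motor of the centralspindlin complex, had log2 changes of -0.27, -0.22 and -0.20 (adjusted p = 0.135, 0.162 and 0.328). Prc1, the microtubule crosslinker of the midzone, had 10.9, 14.1 and 19.8 FPKM in SLE1.2.3 and 13.2, 15.9 and 13.2 FPKM in Control cells. Mouse 1 lay below the Control libraries, mouse 2 inside their range and mouse 3 above it, and its log2 change of 0.04 had a 95% interval of -0.45 to 0.54 and turned negative without SLE1.2.3 mouse 3 (-0.17). Prc1 overlaps Rccd1 over 21810 bases on the other strand, and reads of the 2 genes cannot be told apart without the strand setting of the counting, which is not given in the sources used here.

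The genes that start anaphase went separate ways by value, and none passed in limma or voom. At an unadjusted p of 0.05, 1 was lower and 0 higher, where 14.8% and 20.2% of all tested genes were. Espl1, which encodes the protease separase, had 11.1, 11.7 and 14.9 FPKM in SLE1.2.3 and 15.8, 15.6 and 14.8 FPKM in Control cells (log2 change -0.29, adjusted p = 0.123). Its inhibitor securin is encoded by Pttg1, which had 9.63, 9.64 and 10.5 FPKM in SLE1.2.3 and 9.47, 9.23 and 8.12 FPKM in Control cells. Pttg1 was the single member whose SLE1.2.3 values all lay above the Control values, its log2 change of 0.14 was positive under all 18 alternatives, and it did not pass (adjusted p = 0.252). Ube2c, the ubiquitin-conjugating enzyme of the anaphase-promoting complex, had 57.5, 56.6 and 61.7 FPKM in SLE1.2.3 and 70.3, 73.8 and 59.1 FPKM in Control cells (log2 change -0.20, adjusted p = 0.197).

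Foxm1 and Mybl2 encode factors that, with MuvB, switch on mitotic genes. Foxm1 had 12.96, 12.5 and 16.6 FPKM in SLE1.2.3 and 18.3, 19.97 and 17.5 FPKM in Control cells, without overlap (log2 change -0.39 ± 0.12 SE, adjusted p = 0.0685). Mybl2 had 15.1, 16.1 and 20.4 FPKM in SLE1.2.3 and 20.8, 17.97 and 18.4 FPKM in Control cells, with mouse 3 inside the Control range (log2 change -0.15, adjusted p = 0.427). Neither passed, and voom called 0 of the 2. At an unadjusted p of 0.05 Foxm1 was lower and 0 were higher, where 14.8% and 20.2% of all tested genes were.

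Other mitosis genes were counted from 5 lists. Of their 121 tested genes 15 fell, 0 rose and 106 did not pass (limma), where 5.58% of all tested genes fell and 9.65% rose. At an unadjusted p of 0.05, 47 were lower and 2 higher, where 14.8% and 20.2% of all tested genes were. By voom 17 were lower and 0 higher, where 5.72% of all tested genes were lower. The median log2 change of the 121 genes was -0.19. Among 14 cohesin and condensin genes 4 fell. Ncapd3, a subunit of condensin II, had 10.7, 9.89 and 11.1 FPKM in SLE1.2.3 and 15.8, 16.3 and 15.9 FPKM in Control cells (log2 change -0.55 ± 0.06 SE, adjusted p = 0.00738), and Ncaph2 of the same complex had a log2 change of -0.40 (adjusted p = 0.048). The cohesin ATPase gene Smc3 and Esco2, which acetylates it in S phase, had log2 changes of -0.34 and -0.47 (adjusted p = 0.0203 and 0.0386).

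Of 32 other kinetochore and centromere genes 4 fell and 0 rose, where 5.58% of all tested genes fell and 9.65% rose. These were Nsl1 and Dsn1, both of the MIS12 complex, Hjurp, the chaperone that loads Cenpa, and Cenpu, with log2 changes of -0.48, -0.41, -0.48 and -0.51 (adjusted p = 0.0147, 0.0257, 0.0219 and 0.0255). Of 32 other spindle, centrosome and cytokinesis genes 5 fell and 0 rose. Gtse1, a microtubule tip protein gene, had 25.8, 27.5 and 30.5 FPKM in SLE1.2.3 and 44.4, 40.4 and 41.2 FPKM in Control cells (log2 change -0.57, adjusted p = 0.0116), and Stil, Nedd1 and Cdca3 had log2 changes of -0.51, -0.46 and -0.47 (adjusted p = 0.0208, 0.0272 and 0.0389). Stil and Nedd1 act in building centrioles and nucleating microtubules, and Cdca3 in the destruction of the kinase Wee1. Of 16 other mitotic entry and kinase genes Melk and Cks2 fell, by 0.51 and 0.35 on the log2 scale (adjusted p = 0.0171 and 0.048). Of 27 other checkpoint and anaphase-promoting complex genes 0 passed in limma and 1 was lower by voom. At an unadjusted p of 0.05, 6 of them were lower and 2 higher, where 14.8% and 20.2% of all tested genes were. Zwilch, which recruits the checkpoint, and Anapc16 had log2 changes of -0.38 and 0.25 (adjusted p = 0.0525 and 0.0547).

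S phase precedes mitosis. Of 28 replication genes of that phase 9 fell and 0 rose (limma), where 5.58% of all tested genes fell and 9.65% rose. At an unadjusted p of 0.05, 16 were lower and 1 higher, where 14.8% and 20.2% of all tested genes were. By voom 9 were lower and 0 higher, where 5.72% of all tested genes were lower. The median log2 change of the 28 genes was -0.31. Pold1, the catalytic subunit of DNA polymerase δ, had 17.8, 17.6 and 19.97 FPKM in SLE1.2.3 and 29.4, 29.6 and 30.5 FPKM in Control cells (log2 change -0.67 ± 0.07 SE, adjusted p = 0.00576). The licensing factor gene Cdt1, the clamp loader gene Rfc4 and the ligase gene Lig1 had log2 changes of -0.65, -0.45 and -0.57 (adjusted p = 0.0134, 0.0185 and 0.02). Of 18 genes of the DREAM complex and the E2F family 0 passed in limma or voom, with 3 lower and 3 higher at an unadjusted p of 0.05. Rbl2, which encodes the p130 protein of the DREAM complex of resting cells, had 18.2, 31.4 and 39.9 FPKM in SLE1.2.3 and 13.4, 15.2 and 14.2 FPKM in Control cells, with no overlap and the highest level in SLE1.2.3 mouse 3 (log2 change 0.95 ± 0.26 SE, adjusted p = 0.0584). E2f1, an activator of S phase genes, had 14.5, 12.8 and 15.6 FPKM in SLE1.2.3 and 18.6, 16.9 and 17.8 FPKM in Control cells (adjusted p = 0.0625).

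**Figure D5:**
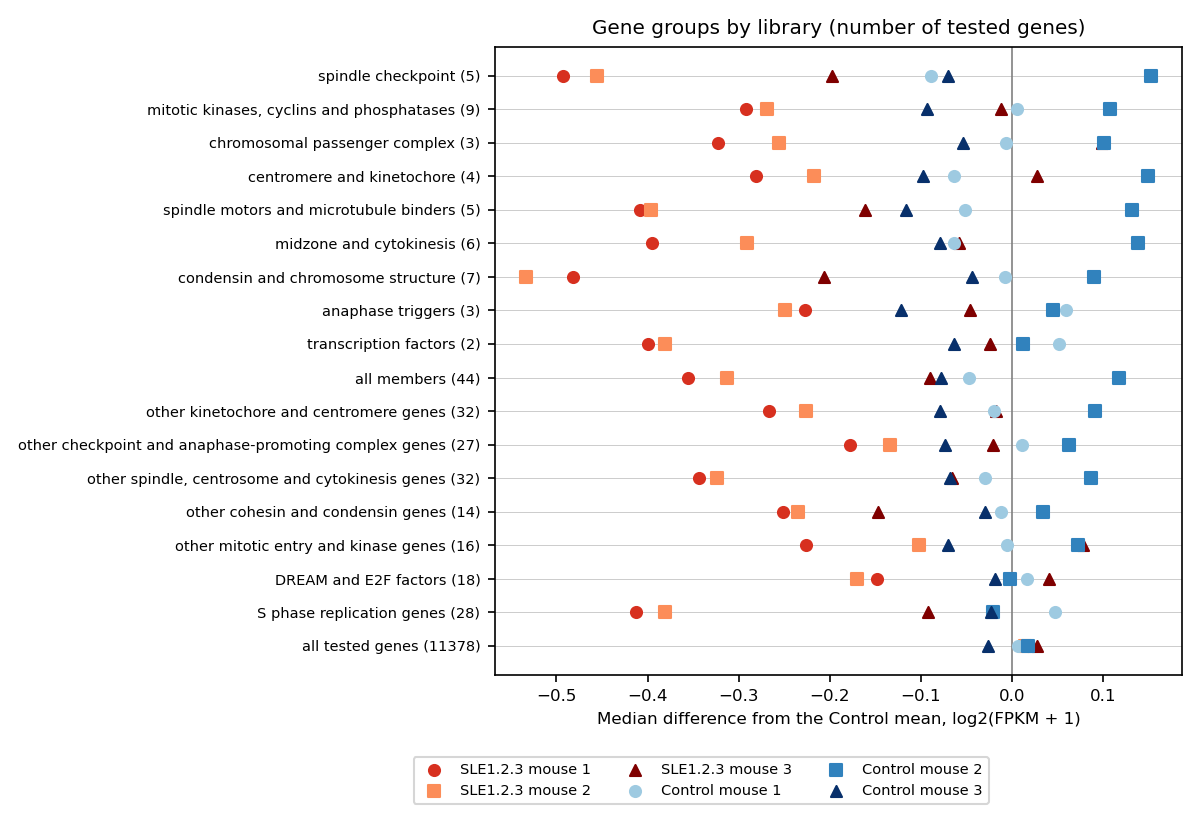
Median difference from the Control mean, in log2(FPKM + 1), for each role of the members, for the other cell cycle lists and for all tested genes, with 1 symbol per library. Over all members the medians are -0.36, -0.31 and -0.09 for SLE1.2.3 mice 1, 2 and 3 and -0.05, 0.12 and -0.08 for Control mice 1, 2 and 3, and over all tested genes they lie between -0.03 and 0.03.

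Within each group 1 library held the highest level of most members. Control mouse 2 was the highest Control library for 39 of 44 members, against 40.6% of all tested genes, and SLE1.2.3 mouse 3 the highest of its group for 41, against 44.3%. The condensin and chromosome structure group had median differences from the Control mean of -0.48, -0.53 and -0.21 for SLE1.2.3 mice 1, 2 and 3, against -0.01, 0.09 and -0.04 for Control mice 1, 2 and 3. The replication genes showed medians of -0.41, -0.38 and -0.09 for SLE1.2.3 mice 1, 2 and 3, against 0.05, -0.02 and -0.02 for Control mice 1, 2 and 3, so that mouse 3 lay closest to the Control libraries in both phases. By deviation from the group means over the 6 libraries, tested genes outside all lists were ranked by likeness to the mean of the members. The most alike were Gm22806, Uevld, Ttc4, Rad51c and Cdc5l. Their Pearson r was at least 0.993, over points that share library and depth. They were picked from all these genes for the highest r over few points, so r is a description only. As an example, Uevld had 2.71, 2.76 and 3.93 FPKM for SLE1.2.3 mice 1, 2 and 3, against 3.04, 3.71 and 2.86 FPKM for Control mice 1, 2 and 3.

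The 44 genes lay on 15 chromosomes, 10 of them on chromosome 2. On the chromosomes of the Sle intervals were Smc2 on chromosome 4 and Bub3, Mki67, Plk1 and Prc1 on chromosome 7. None of these 5 passed (limma, 0 at an unadjusted p of 0.05 and 0 by voom), where 15.2% of all tested genes passed in limma. Of the members 24 overlap another feature of the table. A feature with a mean above 1 FPKM overlaps 7, among them Ccna2 with Exosc9, Kif20a with Cdc23, Kif4 with Pdzd11 and Nusap1 with Oip5. Top2a, which fell, is also among the 7. It overlaps the small nucleolar RNA gene Gm26394 over 115 bases on the other strand (means of 119.5 and 6.6 FPKM). Ccnb1 has near-identical processed pseudogenes, of which Ccnb1-ps had 99.2% identity over 1287 bases and a mean of 0.556 FPKM, against 36.7 FPKM for Ccnb1, so a small part of its reads may be split between them.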

How the data were processed

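RNA of Th17-differentiated cells of 3 SLE1.2.3 and 3 Control mice was sequenced from SMARTER libraries, per the labels' protocols. The authors deposited FPKM values for 33300 features. The submitters' processing notes name cutadapt 2.10, DESeq2 1.24.0, FastQC 0.11.9, STAR 2.7.3a, featureCounts 2.0.0 and mm10. No annotation release or strand setting is given in these sources, and 32630 features had the coordinates of GENCODE M21. FPKM is relative to the assigned reads of a library, so RNA that takes a large share lowers all other values. Low values were whole multiples of 1 read (100% within 0.15 of a read, under 30 reads), which gave depths of 29700000 to 83500000 assigned reads. A count of 0 allows up to 3 reads, by counting error only.

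limma 3.58.1 in R 4.3.3 was fitted to log2(FPKM + 1), with empirical Bayes and a mean-variance trend, over the 11378 features with a mean of at least 1 FPKM, and p-values were adjusted over all of them (Benjamini-Hochberg, 0.05). A log2 change is on this scale, understates the change of low genes, and is SLE1.2.3 minus Control. Spread among these 6 mice is what the p-values measure. The members and lists were chosen with earlier results of these data known. All members could be named, with up to 4 genes that passed per other list, or 2 where none did, by smallest adjusted p. Alternatives changed the pseudocount, filter, scaling, variance model, unit (voom on recovered reads), block and libraries. The fits were tested on simulated data. Promoter letters were searched in RefSeq windows, and transcripts were compared with blastn 2.17.0 (at least 95% identity over 200 bases).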

Additional observations from a re-analysis of the deposited data

How the results depend on the processing

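The log2 changes of Ncapd2, Bub1b, Aurkb, Ncaph, Ncapg and Top2a were negative under all 18 alternatives, and their highest adjusted p-values (limma) were 0.169, 0.145, 0.217, 0.254, 0.240 and 0.382. No member passed as higher under any of the 18. The count of members that fell, 6, was 3 with no filter on low values, 0 with a common FPKM sum, 11 with median ratio size factors, 13 with quantile normalization, 39 with array weights and 1, Ncapd2, with the mouse number as a replicate block. Without SLE1.2.3 mice 2 and 3, an alternative chosen after seeing the data, it was 3. It ranged between 0 and 17 over fits that left out 1 mouse each. The 635 genes that fell among all tested became 310 with no filter, 391 with a mean of at least 5 FPKM, 349 with a common FPKM sum, 3188 with array weights, 334 with the replicate block and 187 without SLE1.2.3 mice 2 and 3, and ranged between 70 and 1573 over fits that left out 1 mouse. The 1098 that rose became 488 with no filter, 738 with a mean of at least 5 FPKM, 3764 with array weights, 606 with the block and 478 without SLE1.2.3 mice 2 and 3, and ranged between 170 and 2128. The array weight estimate did not converge and gave SLE1.2.3 mouse 2 a weight of 68.6, so its counts rest on 1 library of that group. With no filter more genes are tested (30034), and with leaving out mice fewer libraries; the causes of the other moves were not tested. The labels state no pairing, so the mouse numbers were not taken as pairs. Same-numbered mice correlated at -0.004, 0.1001 and 0.091 in their deviations from the group means. SLE1.2.3 mice 2 and 3 matched the Control mouse of their own number best, and mouse 1 did not. With 3 libraries per group these values cannot decide whether the mice were paired.

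Over 790 values of single members 675 kept direction and side of the threshold, 59 gained the threshold, 41 lost it and 15 changed sign, in 3 genes near 0. By setting, Spc25 was at 0.046 with a common FPKM sum, and Bub3 at -0.021 with median ratio factors, -0.029 with quantile normalization, -0.00604 with array weights, -0.012 with voom, -0.066 without SLE1.2.3 mice 2 and 3 and -0.00787 with ribosomal RNA left out of the scaling, also an alternative chosen after seeing the data. Prc1 was at -0.00607 with array weights and -0.34 without SLE1.2.3 mice 2 and 3. Over the fits that left out 1 mouse, Bub3 ranged between -0.042 and 0.037, Spc25 between -0.21 and 0.035 and Prc1 between -0.17 and 0.23.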
